A study of Mus musculus with 8 samples.

Results

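In all, 10 protein-coding genes that lie near Nxnl1 on mouse chromosome 8 were followed in the retina of mice with and without a null allele of Nxnl1. They are Slc27a1, Pgls, Unc13a, Jak3, Insl3, B3gnt3 and Fcho1 on one flank, and Map1s, Ifi30 and Rab3a farther off on the other. They were taken by name as neighbours, and every probe set that the platform annotation gives to them was used. Of the 10 genes, 9 had at least 1 probe set of their own. These made 13 probe sets, and 3 more were annotated to a member together with another gene, so that 16 of the 45037 probe sets tested belong to the group. Insl3 was measured only on probe sets that also name Jak3, and such shared probe sets were given to neither gene. The RNA was total RNA from retinas taken at postnatal day 40, the labels giving BALB/c AJ as the strain of all groups. The pigment epithelium had been dissected off, and each sample was hybridised to 1 Affymetrix 3' expression array. There were 3 arrays labelled wild type (wt/wt), 2 labelled heterozygous (ko/wt) and 3 labelled homozygous for the knockout (ko/ko). The design text counts 9 samples, of which 1 was not analysed here. The labels do not say whether the arrays of a genotype stand for different animals, so the p-values rest on a spread between samples that may be technical. In bulk retina, fewer cells of a type and less RNA per cell cannot be told apart.

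The product of Nxnl1 is RdCVF (rod-derived cone viability factor), related to thioredoxins, which rods make and which helps cones survive. Its neighbours have unrelated roles, in lipid and sugar metabolism, synaptic release, cytokine signalling, hormone signalling, glycosylation, endocytosis, the cytoskeleton and antigen processing. Genes that lie close together on a chromosome tend to be inherited together, so a targeted allele is passed on with the alleles around it.

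In the order of protein-coding genes along chromosome 8 (RefSeq annotation of GRCm38.p6), Slc27a1 is the first gene after Nxnl1 and Pgls is number 2. Unc13a is number 5, Jak3 number 6, Insl3 number 7, B3gnt3 number 8 and Fcho1 number 9. On the other flank Map1s lies 22 genes away, Ifi30 31 and Rab3a 33. Nxnl1 and Slc27a1 are transcribed away from each other, and the annotated start of Nxnl1 lies 2222 bases from the first of 3 starts of Slc27a1. The 250 bases upstream of the start are given for Nxnl1 and Slc27a1, because these starts lie back to back at the targeted gene, and for Ifi30 and Rab3a, the members whose values stood farthest from wild type. Sequences are from RefSeq (GRCm38.p6), 5′ to 3′ in the direction of transcription, and capitals mark motif matches on either strand. The GC box was read as GGGCGG, and the CCAAT box as its name spells it. For the E-box the letters searched were CACGTG.
Nxnl1, chr8:71566650-71566899, minus strand: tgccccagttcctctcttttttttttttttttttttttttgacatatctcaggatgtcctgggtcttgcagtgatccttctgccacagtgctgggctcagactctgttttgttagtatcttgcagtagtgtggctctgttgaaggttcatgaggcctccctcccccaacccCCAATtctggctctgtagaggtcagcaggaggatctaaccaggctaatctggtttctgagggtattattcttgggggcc
Slc27a1, chr8:71568621-71568870, plus strand: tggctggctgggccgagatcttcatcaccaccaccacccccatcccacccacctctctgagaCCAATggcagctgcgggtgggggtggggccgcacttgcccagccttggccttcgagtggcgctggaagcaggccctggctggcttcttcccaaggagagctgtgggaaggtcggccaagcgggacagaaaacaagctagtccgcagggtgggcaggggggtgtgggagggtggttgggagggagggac
Ifi30, chr8:70766664-70766913, minus strand: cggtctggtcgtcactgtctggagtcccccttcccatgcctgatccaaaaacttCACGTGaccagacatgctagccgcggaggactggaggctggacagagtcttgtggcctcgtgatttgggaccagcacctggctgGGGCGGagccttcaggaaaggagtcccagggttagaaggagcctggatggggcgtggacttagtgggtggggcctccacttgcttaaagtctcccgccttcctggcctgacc
Rab3a, chr8:70754453-70754702, plus strand: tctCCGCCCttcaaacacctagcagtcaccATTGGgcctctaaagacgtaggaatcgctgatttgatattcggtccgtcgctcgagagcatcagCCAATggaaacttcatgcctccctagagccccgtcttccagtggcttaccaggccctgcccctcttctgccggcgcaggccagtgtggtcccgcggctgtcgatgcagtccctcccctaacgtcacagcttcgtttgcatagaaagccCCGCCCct
The Nxnl1 window holds no CpG, as do 7.87% of the 32851 promoter windows of this length, and 1 CCAAT box. The other windows are richer, with 8 CpG for Slc27a1, 9 for Ifi30 and 16 for Rab3a. All 10 members matched the promoter table, and their 13 windows held 8 to 25 CpG against a median of 6 over all windows. A GC box was found in 10 of the members' 13 windows, which belong to 9 of the 10 genes, and in 32.7% of all windows. It was not found in the Slc27a1 window printed, but in the windows of the other Slc27a1 starts. The CCAAT box was found in 3 of the 13 windows (33.8% of all windows) and the E-box in 2 (6.02%). The Crx motif TAATCC, which a photoreceptor regulator binds, and the STAT motif TTCNNNGAA, which JAK-activated factors bind, were found in 0 of the 13 windows, against 6.25% and 7.02% of all windows. The matches overlap no other searched motif in the windows printed, and they describe letters only.

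Values are log2 expression levels made with RMA, 1 per probe set and array, so a difference of 1 is a doubling; levels of different probe sets were not set against each other. Array medians ran from 6.11 to 6.21. The targeted gene went against its label on homozygous array 2, and the 2 heterozygous arrays differed widely from each other. At its brighter probe set, Nxnl1 read 9.22, 8.87 and 8.65 in wild type, 8.65 and 6.75 in heterozygous and 6.13, 8.76 and 6.13 in homozygous arrays. The library labelled homozygous 2 was thus among the wild-type values. At this probe set both heterozygous libraries lay below every wild-type array, heterozygous 1 only just (8.654 against 8.655) and heterozygous 2 by far. A level below wild type does not go against a heterozygous label, and 2 arrays do not show which of them is unusual. Whether labels were exchanged between the libraries labelled homozygous 2 and heterozygous 2 was not tested. If they were, each difference over the arrays as labelled mixes genotypes. Each difference below is therefore given over the arrays as labelled. Where it matters it is also given over the 6 arrays left without homozygous array 2 and heterozygous array 2. That choice was made after the Nxnl1 values were seen. As labelled, the log2 difference of homozygous minus wild type for Nxnl1 was -1.91 (SE 0.73), with a limma adjusted p of 0.9999. It was -2.78 (SE 0.18) on the 6 arrays. The second Nxnl1 probe set read 6.21, 6.76 and 6.70 in wild type and 6.79 and 5.48 in heterozygous arrays. In homozygous arrays it read 5.47, 6.62 and 5.56. Its homozygous minus wild-type difference was -0.67 (SE 0.40) as labelled and -1.04 on the 6 arrays. RNA integrity also differed: the actin difference (the 5′ actin control probe set minus the 3′ one, lower in more degraded RNA) ran from -1.81 to -0.80 in wild type, from -0.90 to -0.71 in the heterozygous group and from -1.74 to -0.69 in the homozygous group. Its lowest values were on wild-type array 1 and homozygous array 1. Marker levels were summed as log2 values, here and below, so ratios of these sums are not fold changes. The summed level of 7 measured rod markers ran from 92.4 to 93.4 in wild type and from 92.8 to 93.6 in heterozygous arrays. In homozygous arrays these markers ran from 92.8 to 93.8. Among them Pde6a, a subunit of the rod phosphodiesterase, had the widest range over the 8 arrays, from 10.59 to 11.18. Lens markers ran from 54.4 to 78.3 in wild type, from 55.0 to 71.7 in heterozygous and from 53.6 to 80.3 in homozygous arrays. Their sum was 71.7 on heterozygous array 2, 80.3 and 69.1 on homozygous arrays 1 and 3, and 53.6 on homozygous array 2. Their median difference for homozygous minus wild type was 0.22 on all 8 arrays and 0.51 on the 6 arrays. Single lens markers had unlike ranges over the 8 arrays. Cryaa ran from 5.45 to 11.72 and Cryba1 from 4.32 to 10.98, while Mip ran from 4.82 to 5.17. The part of lens tissue in the differences below was not tested.

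The first comparison asks how the neighbours' transcripts stood in the homozygous against the wild-type retina. The neighbours differed little from wild type, and Ifi30, Rab3a and Jak3 stood highest among them, by 0.28, 0.20 and 0.17. Of the 9 members measured on their own, 8 lay above 0 at their main probe set (the one with the highest mean over all arrays), with a median difference of 0.10. Over all 18193 genes 60.5% lay above 0 and the median was 0.02. By limma with Benjamini-Hochberg adjustment over all probe sets, 0 of the 16 member probe sets passed 0.05, where 0% of all probe sets passed. At an unadjusted limma p under 0.05, 1 of 16 passed (Ifi30), against 0.913% of all probe sets (411); that background was 1314 probe sets without homozygous array 2, 725 without wild-type array 1 and 5673 with array weights. The homozygous arrays lay wholly above wild type at 2 of 16 member probe sets and wholly below at 1, against 2.63% and 1.84% of all. On the 6 arrays 7 of 9 members lay above 0 with a median of 0.18 (all genes 63% and 0.05), 0 of 16 probe sets passed the adjusted test (0% of all), 1 passed unadjusted (2.01% of all), 3 lay wholly above and 1 wholly below wild type (9.29% and 6.93% of all). Across the 8 arrays the members' main probe sets had a median range of 0.45, and those of all genes 0.41.

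**Figure D1:**
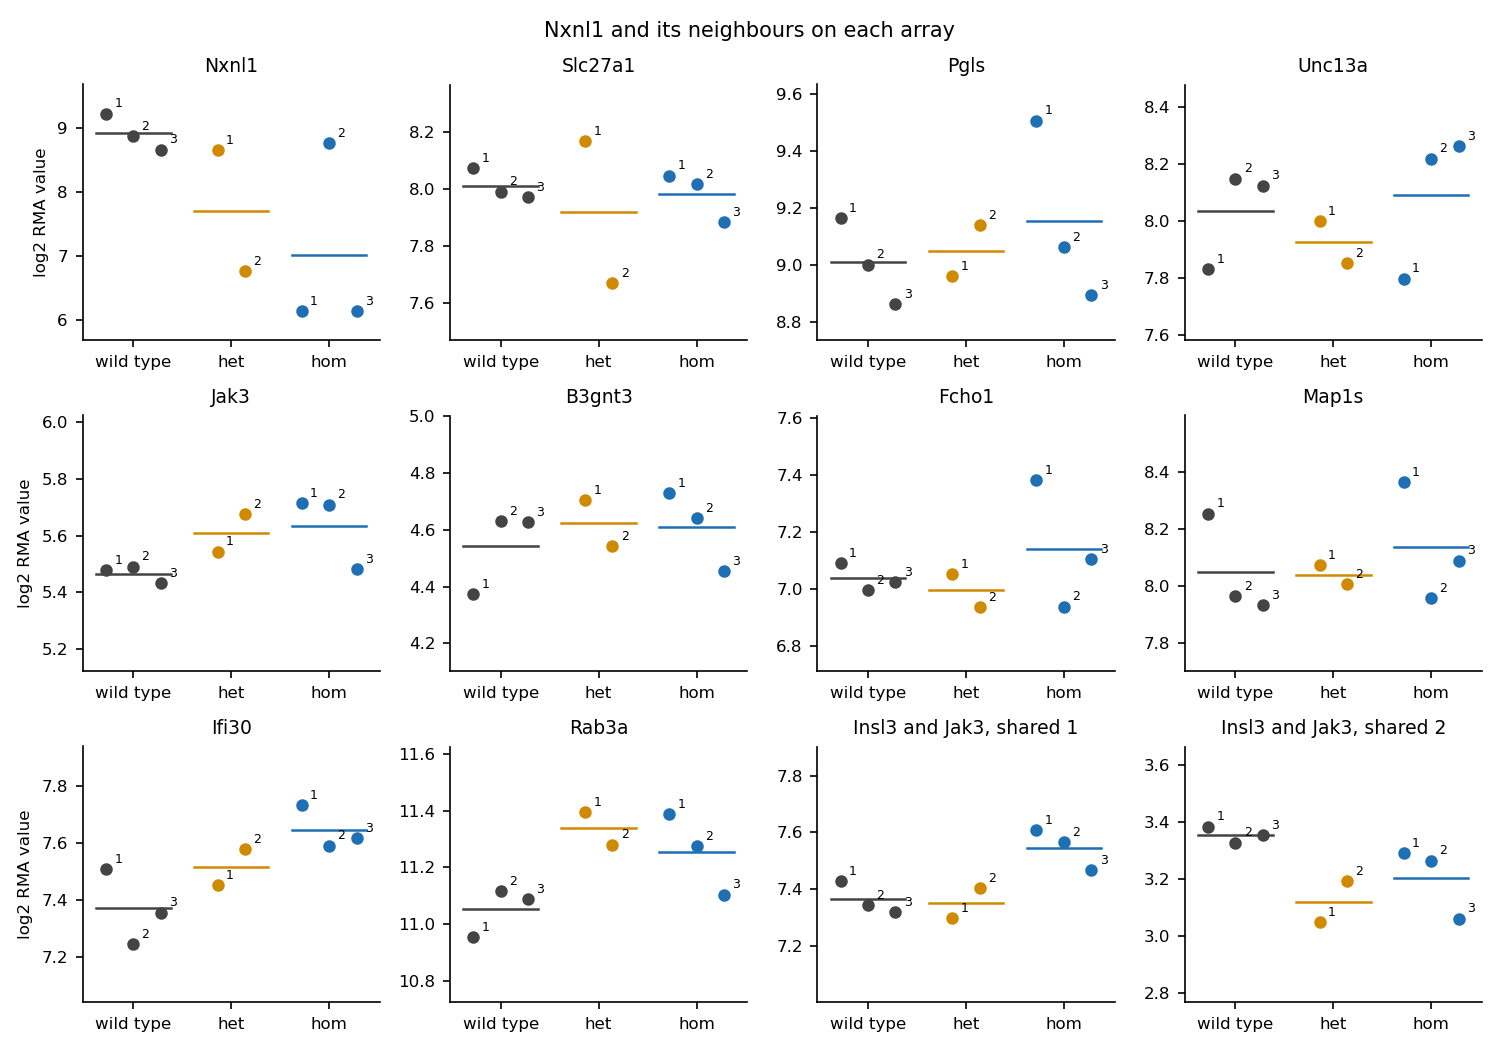
Log2 RMA value of the main probe set of Nxnl1 and of each of the 9 neighbours measured on their own, and of the probe sets shared by Insl3 and Jak3, 1 numbered point per array, by labelled genotype (het, heterozygous; hom, homozygous), with lines at the group means. In the Ifi30 panel the homozygous arrays (7.59 to 7.73) lie above all wild-type arrays (7.25 to 7.51). In the Nxnl1 panel, whose axis spans more than the others, hom 2 lies apart from its group and the het arrays lie apart from each other.

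Slc27a1, a fatty acid transport protein that activates long-chain fatty acids as they enter the cell, lies next to Nxnl1. Its brighter probe set read 8.07, 7.99 and 7.97 in wild type, 8.17 and 7.67 in heterozygous and 8.05, 8.02 and 7.88 in homozygous arrays. The homozygous arrays overlapped wild type, and the lowest value was on heterozygous array 2. The wild-type mean was 8.01 ± 0.05 (SD, n = 3) and the homozygous mean 7.98 ± 0.09 (SD, n = 3), a log2 difference of -0.03 (SE 0.13, 95% interval -0.34 to 0.28). Its second probe set read 7.59, 7.65 and 7.81 in wild type, 7.82 and 7.48 in heterozygous and 7.67, 7.78 and 7.52 in homozygous arrays, and also differed by -0.03. On both probe sets heterozygous array 1 was the highest and heterozygous array 2 the lowest of the 8 arrays.

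Pgls encodes 6-phosphogluconolactonase, an enzyme of the pentose phosphate pathway. It read 9.16, 9.00 and 8.86 in wild type, 8.96 and 9.14 in heterozygous and 9.51, 9.06 and 8.89 in homozygous arrays. The groups overlapped, and homozygous array 1 stood above all other arrays. The difference was 0.15 (SE 0.17, 95% interval -0.23 to 0.52), and it was -0.03 without homozygous array 1.

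Unc13a and Rab3a act at the synapse. Unc13a (Munc13-1) readies synaptic vesicles for fusion, and Rab3a is a small GTPase on the vesicle membrane. Unc13a read 7.83, 8.15 and 8.12 in wild type, 7.999 and 7.85 in heterozygous and 7.80, 8.22 and 8.26 in homozygous arrays. The lowest values were those of homozygous array 1 and wild-type array 1. The homozygous minus wild-type difference was 0.06 (SE 0.15, 95% interval -0.29 to 0.40), lay between -0.04 and 0.21 when single arrays were dropped, and was -0.0050 on the 6 arrays. Rab3a read 10.95, 11.12 and 11.09 in wild type, 11.40 and 11.28 in heterozygous and 11.39, 11.28 and 11.10 in homozygous arrays at its brighter probe set. Both heterozygous arrays exceeded every wild-type array, while homozygous array 3 lay within the wild-type range. The homozygous difference was 0.20 (SE 0.10, 95% interval -0.04 to 0.44, unadjusted limma p 0.088, adjusted 0.9999). It was 0.09 without wild-type array 1 and homozygous array 1, and 0.051 with limma's array weights. The second Rab3a probe set read 10.80, 10.79 and 10.86 in wild type, 10.92 and 10.90 in heterozygous and 10.85, 10.93 and 10.71 in homozygous arrays. There the homozygous difference was 0.02 (SE 0.09), and homozygous array 3 was the lowest of all. Over the 8 arrays, which share 1 normalization, the Rab3a probe sets had a Pearson r of 0.653.

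Jak3 is the tyrosine kinase that carries signals from cytokine receptors with the common gamma chain, and Insl3 is a relaxin-family hormone of the testis. Jak3 read 5.48, 5.49 and 5.43 in wild type, 5.54 and 5.68 in heterozygous and 5.71, 5.71 and 5.48 in homozygous arrays. Both heterozygous arrays and 2 homozygous arrays lay above wild type, and homozygous array 3 lay within it. The homozygous difference was 0.17 (SE 0.10, 95% interval -0.06 to 0.39, unadjusted limma p 0.126) and 0.13 on the 6 arrays, and it was 0.047 with limma's array weights. The first probe set annotated to both Insl3 and Jak3 read 7.43, 7.34 and 7.32 in wild type, 7.30 and 7.40 in heterozygous and 7.61, 7.57 and 7.47 in homozygous arrays. All homozygous arrays were above all wild-type arrays, with a difference of 0.18 (SE 0.09, unadjusted limma p 0.0717). The second read 3.38, 3.33 and 3.35 in wild type, 3.05 and 3.19 in heterozygous and 3.29, 3.26 and 3.06 in homozygous arrays. These readings lie near the lowest value of the table (2.498) and well below the array medians. The homozygous arrays were all below wild type, by -0.15 (SE 0.10), and no direction is drawn for either gene from values so near the floor. For each, p was 0.1 in an exact two-sided permutation test, the smallest that 3 arrays against 3 allow. Lymphocyte markers, 9 of 11 measured, summed to 43.9 to 44.4 in wild type, 43.5 to 44.4 in heterozygous and 43.6 to 45.1 in homozygous arrays, and their part in the Jak3 values was not tested.

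Ifi30 encodes GILT, an interferon-gamma-inducible thiol reductase of the lysosome that unfolds proteins for antigen presentation. It read 7.51, 7.25 and 7.35 in wild type, 7.45 and 7.58 in heterozygous and 7.73, 7.59 and 7.62 in homozygous arrays. The homozygous arrays were above all others, and the heterozygous arrays overlapped wild type. The wild-type mean was 7.37 ± 0.13 (SD, n = 3), the heterozygous mean 7.51 ± 0.09 (SD, n = 2) and the homozygous mean 7.65 ± 0.08 (SD, n = 3). The homozygous minus wild-type difference was 0.28 (SE 0.10, 95% interval 0.04 to 0.51). The unadjusted limma p was 0.0256 and the adjusted p 0.9999, and p was 0.1 in the exact two-sided permutation test. The difference was 0.31 (SE 0.12) on the 6 arrays, 0.30 without wild-type array 1 and homozygous array 1, and 0.21 to 0.35 with 1 array left out. A probe set annotated to Ifi30 together with its neighbour Pik3r2 read 6.15, 6.36 and 6.16 in wild type, 6.32 and 6.23 in heterozygous and 6.18, 6.20 and 6.17 in homozygous arrays, a difference of -0.04 (SE 0.09). Ifi30 is strongly expressed by antigen-presenting cells. The markers of microglia and macrophages, 12 of 12 measured, summed to 70.0 to 74.5 in wild type, 71.3 to 75.9 in heterozygous and 72.1 to 76.7 in homozygous arrays, and 10 of the 12 lay above 0 with a median difference of 0.19; 0 of 12 passed the adjusted limma test. Endothelial markers, 8 of 8 measured, summed to 47.9 to 48.7, 48.6 to 49.8 and 49.3 to 51.6 in the same order, the homozygous sums lying above all wild-type sums. All 8 lay above 0 for homozygous minus wild type, with a median difference of 0.19, and 0 of 8 passed the adjusted limma test. No marker was at 0, since the RMA table holds none, and the part of these cells in the Ifi30 values was not tested.

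B3gnt3, a glycosyltransferase that adds N-acetylglucosamine to O-glycans, read 4.37, 4.63 and 4.63 in wild type, 4.71 and 4.54 in heterozygous and 4.73, 4.64 and 4.45 in homozygous arrays. Its groups overlapped, with a homozygous difference of 0.06 (SE 0.12, 95% interval -0.20 to 0.33). It was -0.02 without wild-type array 1, which was the lowest.

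Fcho1 starts clathrin-coated pits at the plasma membrane, and Map1s binds microtubules and takes part in autophagy. The brightest Fcho1 probe set read 7.09, 6.995 and 7.02 in wild type, 7.05 and 6.94 in heterozygous and 7.38, 6.94 and 7.10 in homozygous arrays. Homozygous array 1 stood apart from the 7 others. The difference was 0.10 (SE 0.12, 95% interval -0.18 to 0.39), and -0.02 without homozygous array 1. A second Fcho1 probe set read 6.48, 6.49 and 6.44 in wild type, 6.45 and 6.499 in heterozygous and 6.88, 6.46 and 6.42 in homozygous arrays, again highest on homozygous array 1, with a difference of 0.12 (SE 0.13). The third read 5.65, 5.69 and 5.68 in wild type, 5.73 and 5.39 in heterozygous and 5.69, 5.82 and 5.84 in homozygous arrays, with a difference of 0.11 (SE 0.11). Its high arrays were others: over the 8 arrays its Pearson r was 0.194 with the first and -0.12 with the second, whereas these had 0.843 between them. Map1s read 8.25, 7.96 and 7.93 in wild type, 8.07 and 8.01 in heterozygous and 8.37, 7.96 and 8.09 in homozygous arrays. Its groups overlapped, with a difference of 0.09 (SE 0.14, 95% interval -0.22 to 0.40) and of -0.03 without homozygous array 1. Pgls, Map1s and the brightest Fcho1 probe set were each highest on homozygous array 1, and Pgls and Map1s next highest on wild-type array 1. These are the arrays with the lowest actin differences (-1.74 and -1.81). They also had the highest summed lens markers (80.3 and 78.3) and the lowest summed rod markers (92.8 and 92.4). The parts of RNA integrity and of tissue make-up in these values were not tested and cannot be told apart here.

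**Figure D2:**
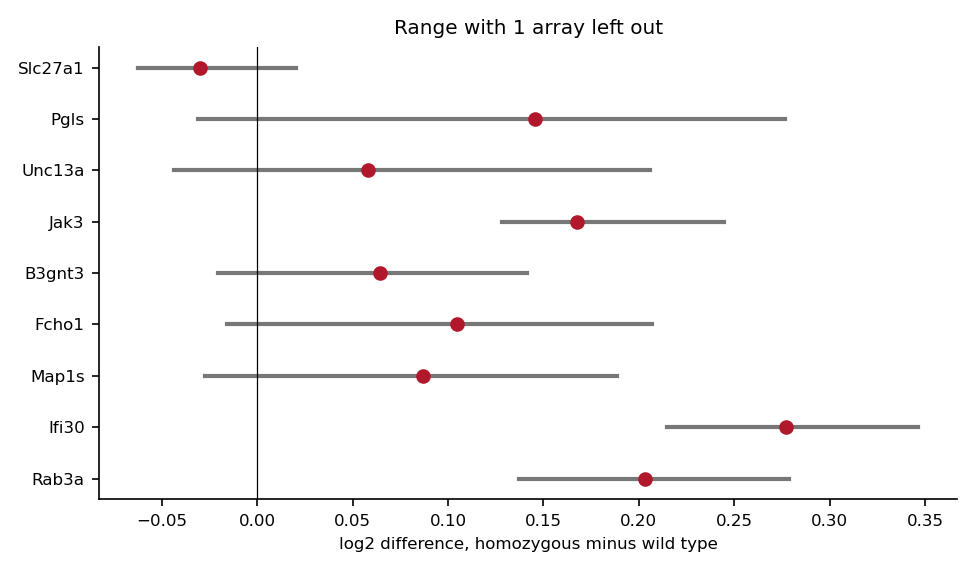
Log2 difference of homozygous minus wild type for each neighbour's main probe set (points) and its lowest and highest value when 1 array is left out (bars). Bars of Jak3, Ifi30 and Rab3a stay above 0, with Ifi30 between 0.21 and 0.35, while the 6 others cross 0.

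The second comparison sets heterozygous against wild-type retina. Rab3a was the member farthest from wild type by main probe set. Its brighter probe set was 0.29 higher (SE 0.12, 95% interval 0.02 to 0.55, unadjusted limma p 0.0403, adjusted 0.9999), and 0.34 higher on the 6 arrays. The second Rab3a probe set was 0.09 higher (SE 0.10, 95% interval -0.14 to 0.32). Markers of pigment epithelium and choroid, 9 of 9 measured, moved with this comparison: their summed level ran from 77.9 to 82.0 in wild type and from 76.3 to 76.4 in heterozygous arrays, and from 76.4 to 80.3 in homozygous ones. Only 1 of the 9 lay above 0 for heterozygous minus wild type, with a median of -0.52, and 4 were lower at an unadjusted limma p under 0.05 and 0 by adjusted p. Their part in the members' values was not tested. Jak3 differed by 0.14 (SE 0.11) and Ifi30 by 0.15 (SE 0.11). Unc13a differed by -0.11 (SE 0.17) and Slc27a1 by -0.09 (SE 0.15). On the 6 arrays heterozygous array 1 is the lone heterozygous sample and is assumed to vary like the other groups. There Slc27a1 differed by 0.16, Jak3 by 0.08, Ifi30 by 0.08 and Unc13a by -0.04. Of 9 members 7 lay above 0 there, with a median of 0.08, against 48.5% of all genes and a median of -0.005. Over all 8 arrays 5 of 9 members lay above 0, with a median of 0.04, against 47.6% of all genes and a median of -0.01. By adjusted limma p 0 of 16 member probe sets passed (0% of all), and 1 of 16 (Rab3a) had an unadjusted limma p under 0.05 (1.15% of all). Heterozygous arrays lay wholly above wild type at 3 of 16 member probe sets, the 2 of Rab3a and that of Jak3, and wholly below at 1, a probe set shared by Insl3 and Jak3. Of all probe sets 7.03% lay wholly above and 7.2% wholly below.

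**Figure D3:**
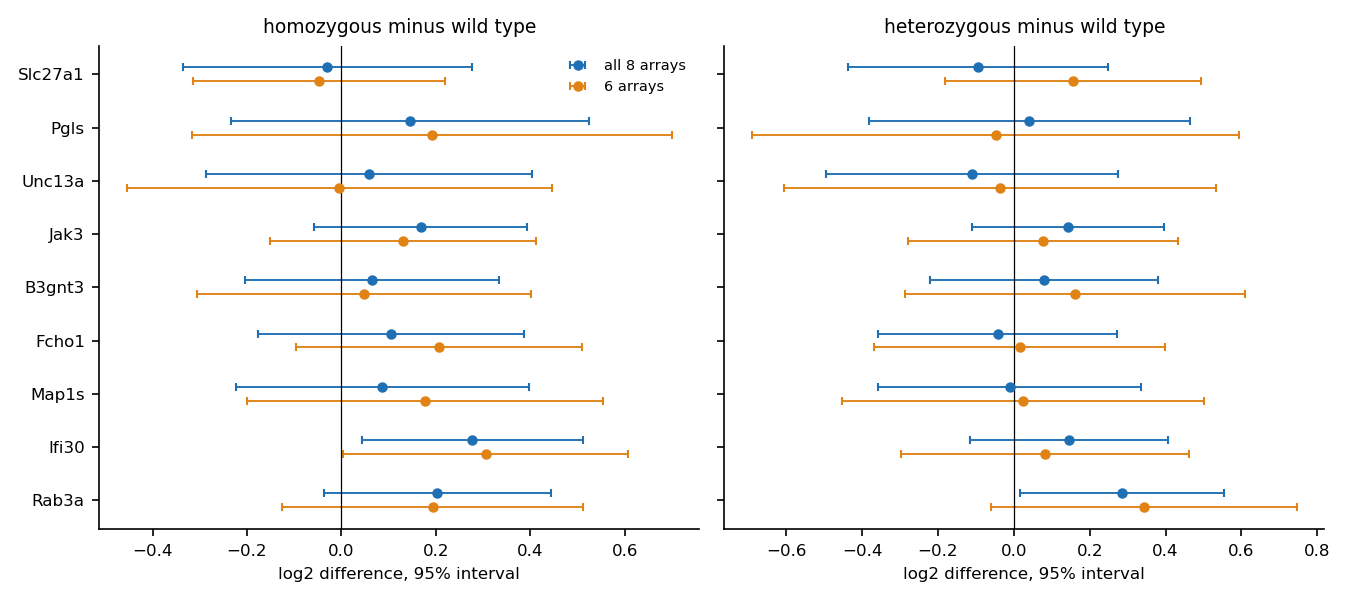
Log2 differences with 95% intervals of homozygous (left) and heterozygous (right) minus wild type for each neighbour's main probe set, over all 8 arrays and over the 6 arrays left without heterozygous array 2 and homozygous array 2. On the left the intervals of Ifi30 (0.28 and 0.31) lie above 0 in both fits and the others span 0; on the right that of Rab3a lies above 0 on 8 arrays (0.02 to 0.55) and spans 0 on 6.

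Between homozygous and heterozygous retina the differences of the members' main probe sets ran from -0.08 for Rab3a to 0.17 for Unc13a (SE 0.12 and 0.17). Among the other member probe sets, the third of Fcho1 differed by 0.22 (SE 0.12) and the first shared by Insl3 and Jak3 by 0.20 (SE 0.10). The one shared by Ifi30 and Pik3r2 differed by -0.09 (SE 0.10). On the 6 arrays, with 1 heterozygous sample, the main probe sets ran from -0.20 for Slc27a1 to 0.24 for Pgls. There Unc13a differed by 0.03, Rab3a by -0.15 and Ifi30 by 0.22. The third Fcho1 probe set differed by 0.04 there, and the shared ones by 0.24 and -0.15 in the same order. Ifi30 was 0.13 higher in the homozygous arrays (SE 0.11, 95% interval -0.13 to 0.39). Of 16 member probe sets 0 passed the adjusted limma test (0% of all) and 0 had an unadjusted limma p under 0.05 (0.899% of all). Homozygous arrays lay wholly above heterozygous ones at 2 of 16 (6.75% of all), and wholly below at 1 (5.68% of all). Above 0 were 7 of 9 members, with a median of 0.10, against 63.7% of all genes and a median of 0.03. Ordered by group means, Ifi30 read lowest in wild type and highest in homozygous arrays, and Rab3a read lowest in wild type and highest in heterozygous arrays. Neither step between heterozygous and homozygous arrays passed the test, and the comparisons share samples with those against wild type.

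The stretch around Nxnl1 was then described over the 40 nearest protein-coding genes on each side, of which 64 of 80 were measured. Apart from the 9 members, 38 of 55 genes lay above 0 for homozygous minus wild type, with a median of 0.06. The rest of chromosome 8 had 538 of 867 above 0 and a median of 0.03. On the 6 arrays 40 of the 55 lay above 0, with a median of 0.10. The rest of chromosome 8 then had 568 of 867 above 0 and a median of 0.06. Of all genes 63% lay above 0 on the 6 arrays, with a median of 0.05. Members included, the 10 nearest genes on each side had 13 of 15 above 0 and a median of 0.13, and those 11 to 40 genes away 33 of 49 and 0.05. The flank that holds Map1s, Ifi30 and Rab3a had 26 of 31 above 0 and a median of 0.12, and the flank that holds Slc27a1 to Fcho1 had 20 of 33 and 0.05; the difference between the flanks was not tested. Bst2 (tetherin), an interferon-induced protein that holds budding viruses at the membrane, lies 3 genes from Nxnl1 and had the largest positive difference of the 64 measured genes. It read 5.69, 5.90 and 5.90 in wild type, 5.89 and 6.40 in heterozygous and 6.25, 5.97 and 6.37 in homozygous arrays. All homozygous arrays lay above all wild-type arrays, with a difference of 0.37 (SE 0.16, unadjusted limma p 0.0499, adjusted 0.9999), and of 0.49 (SE 0.12) on the 6 arrays. Ranked by smallest unadjusted limma p and not by size, other neighbours on the higher side were Colgalt1 at 0.17, Pik3r2 at 0.16 and Mast3 at 0.15. On the lower side were Niban3 at -0.13, Cyp4f18 at -0.11, Use1 at -0.09 and Slc35e1 at -0.06. None of these 8 genes passed the adjusted limma test. Some genes ranked lower by p differed more than Colgalt1, such as Haus8 and Slc5a5, both at 0.24. Without wild-type array 3, Pik3r2 had 0.094, Mast3 0.082, Niban3 -0.076, Cyp4f18 -0.030 and Slc35e1 0.030, and without homozygous array 3 Use1 had -0.019.

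**Figure D4:**
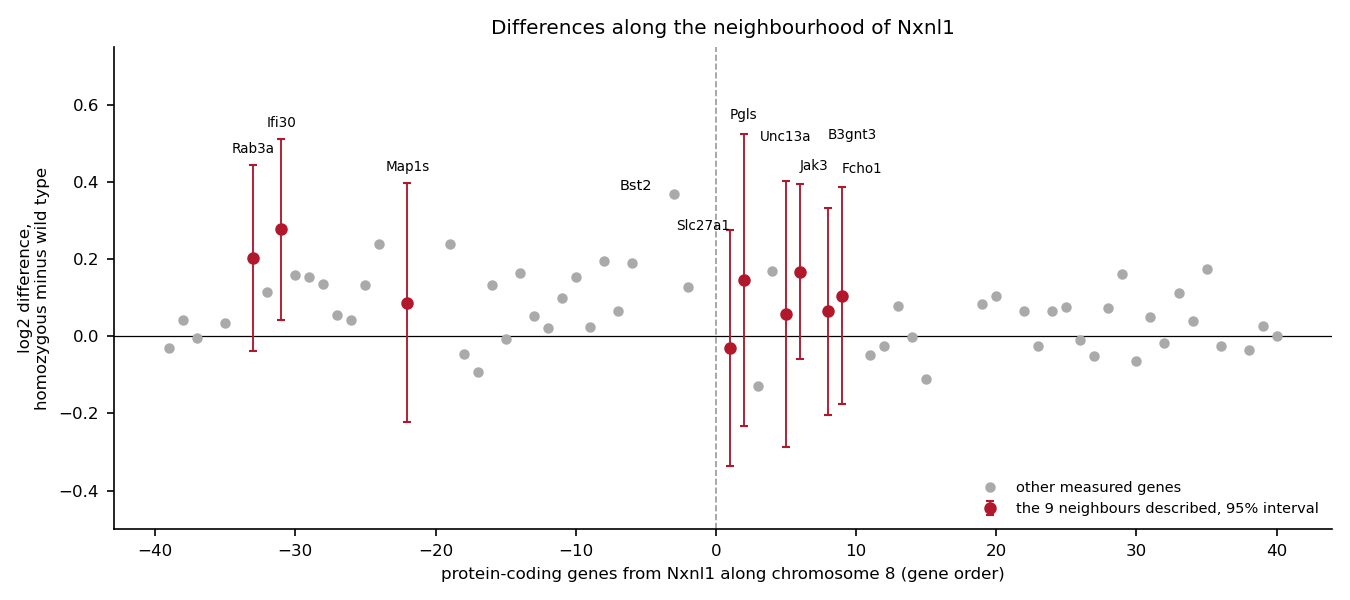
Log2 difference of homozygous minus wild type (vertical axis, all 8 arrays) for measured protein-coding genes in their order from Nxnl1 along chromosome 8 (horizontal axis, counted in genes); the neighbours described carry 95% intervals. Apart from Bst2 at 0.37 the points lie between -0.13 and 0.28, and the interval of Ifi30 alone among the 9 excludes 0.

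Lists of genes that work with the members were chosen by function, with earlier results of these data known, so their counts are description only. The genes of these lists were measured for homozygous minus wild type in the same way. None passed the adjusted limma test in any list, and 0 genes had an unadjusted limma p under 0.05. The lists are read against 60.5% above 0 and a median of 0.02 over all genes. Of 14 measured genes of lysosomal antigen processing, the setting in which Ifi30 works, 14 lay above 0, with a median of 0.09. Ciita, the master regulator of MHC class II genes, led them at 0.25. For heterozygous minus wild type, 7 of the 14 lay above 0. Pentose phosphate enzymes, partners of Pgls, had 8 of 9 above 0 and a median of 0.11, with H6pd at 0.21 and Rpe at -0.08. Of 17 genes of common gamma chain and JAK-STAT signalling 14 lay above 0 (median 0.07), with the interleukin receptor chains Il15ra at 0.18 and Il9r at -0.15. Synaptic vesicle priming and release genes had 19 of 27 above 0 and a median of 0.04. Among them Rab3il1 differed by 0.20, the Rab3a paralog Rab3b by 0.21 and the calcium sensor Doc2b by -0.09. Fatty acid transport and activation genes had 9 of 16 above 0 (median 0.05), and the paralogs of Slc27a1 lay on both sides, Slc27a3 at 0.19 and Slc27a5 at -0.19. Clathrin coat genes had 11 of 17 above 0 (median 0.04), with the adaptor subunit Ap2a1 at 0.22 and the Fcho1 paralog Fcho2 at -0.23. Microtubule-associated proteins had 9 of 11 (median 0.05), with Map4 at 0.20 and Map2 at -0.15. Enzymes of lactosamine synthesis related to B3gnt3 had 8 of 12 (median 0.01), with B3gntl1 at 0.20 and B3gnt4 at -0.10. Relaxin-family peptides and receptors had 4 of 5 (median 0.15), with Insl6 at 0.30, the Insl3 receptor Rxfp2 at 0.20 and Insl5 at -0.22. On the 6 arrays, where the median of all genes was 0.05, the median of each of the 9 lists was higher than on 8 arrays. It then ran from 0.035 for lactosamine synthesis to 0.23 for pentose phosphate enzymes, with 0.19 for lysosomal antigen processing, and 0 genes of any list passed the adjusted limma test. Single arrays weighed on these values: Insl5 had 0.19 without homozygous array 1, Map4 ran from 0.082 without homozygous array 1 to 0.36 without homozygous array 2, and Il15ra from 0.081 without homozygous array 2 to 0.28 without homozygous array 1. Insl6 ran from 0.16 without homozygous array 2 to 0.48 without homozygous array 3.

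The genes whose pattern over the 8 arrays was most like that of a member were found by Pearson correlation among all genes, as a description. All points share 1 normalization and the same 8 RNA samples, and each gene named was picked as the highest of 18193 genes. For Ifi30 they were Actl6b (0.986), a subunit of the neuronal chromatin remodelling complex, Rab26 (0.95) and Psmb9 (0.944), an interferon-induced subunit of the immunoproteasome. Psmb9 read 5.55, 5.39 and 5.46 in wild type, 5.60 and 5.70 in heterozygous and 5.95, 5.82 and 5.90 in homozygous arrays. For Rab3a they were Galnt6 (0.97), Car11 (0.967) and Tsfm (0.951). For Jak3 they were Spaca7 (0.961), Stambpl1 (0.949) and Etf1 (0.941). Spaca7 read from 2.92 to 3.10 over the 8 arrays, near the lowest value of the data (2.498).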

How the data were processed

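Affymetrix 3' arrays measured total RNA of 8 retina samples. The deposited table holds log2 values. The authors used RMA to make them, per the submitters' processing notes, with a version and options not stated in the labels. RMA fits the background, equalises the arrays' distributions by quantile normalization and summarises probes, so each difference is relative to the bulk of transcripts. Of 45101 probe sets, 64 controls were left out. Symbols came from the platform annotation, updated through gene identifiers for 34741 probe sets; 34945 had 1 symbol, 932 several and 9160 none. Gene order and promoters came from RefSeq (GRCm38.p6).

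Group means were fitted over all 8 arrays with limma 3.58.1 in R 4.3.3 (moderated two-sided test; SE and 95% intervals from it), adjusted by Benjamini-Hochberg over 45037 probe sets. The fit was tested on simulated data. The members and lists were chosen with earlier results of these data known. Named genes are all members, up to 4 other genes of the wider stretch per direction and the top gene per list and direction. The ranking was by smallest unadjusted limma p for homozygous minus wild type. Rab3b and Rxfp2, second on the higher side of their lists, were also named. No other second-ranked gene of a list was named, on either side. For likeness, 3 genes were named for the members with the smallest p. Alternatives covered scaling, filters, the variance model, probe set choice, a replicate block and arrays left out. The labels do not say whether replicate numbers pair the arrays, so the main fit used no block. The number of arrays limits the precision.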

Additional observations from a re-analysis of the deposited data

How the results depend on the processing

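No member probe set passed the adjusted limma threshold under any alternative for homozygous minus wild type, where the smallest adjusted p was 0.284. Ifi30 kept its direction in every alternative, from 0.21 to 0.35, Rab3a from 0.051 to 0.28 and Jak3 from 0.047 to 0.24, the lowest of Rab3a and Jak3 under array weights. The count of all probe sets at an unadjusted p under 0.05 for homozygous minus wild type ran from 67, with probe sets below the median level left out, to 5673 under array weights. Of 27 other named genes, 21 moved by over 1.5 times when 1 array was left out. With 1 array left out, the count of all probe sets called ran from 0 to 1 for homozygous and from 0 to 1 for heterozygous minus wild type; the 1 called without wild-type array 3 was no member probe set. Members above 0 ran from 5 (without homozygous array 1) to 8 for homozygous minus wild type and from 4 to 8 for homozygous minus heterozygous. They were 4 for homozygous minus heterozygous under array weights and 4 without the arrays of lowest actin difference, an alternative added after seeing the data, as were the actin covariate and the 6 arrays. Whether replicate numbers pair the arrays is not known. Deviations of wild-type and homozygous arrays of the same number correlated at 0.616, 0.23 and -0.035. Those of different numbers ran from -0.642 to 0.519. With the replicate block 0 probe sets passed for each comparison by adjusted limma p, against 0 without it, and 336, 829 and 1028 had an unadjusted p under 0.05, against 411, 516 and 405. The block turned Pgls for heterozygous minus wild type (-0.061) and B3gnt3 for homozygous minus heterozygous (0.0025).

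For homozygous minus wild type, leaving out 1 array gave -0.021 to 0.14 for B3gnt3, -0.016 to 0.21 for Fcho1, -0.028 to 0.19 for Map1s, -0.031 to 0.28 for Pgls, -0.062 to 0.020 for Slc27a1 and -0.044 to 0.21 for Unc13a. Second probe sets gave -0.028 to 0.20 for Fcho1, -0.033 to 0.075 for Rab3a and -0.090 to 0.039 for Slc27a1, and the probe set of Ifi30 and Pik3r2 -0.080 to 0.027. Others gave -0.13 to 0.030 for Slc35e1, -0.17 to 0.011 for Doc2b, -0.60 to 0.19 for Insl5 and -0.15 to 0.016 for Rpe. Array weights turned B3gnt3 (-0.11), Pgls (-0.030), the second probe sets of Fcho1 (-0.014) and Rab3a (-0.041), B3gnt4 (0.0035) and Rpe (0.083). The 6 arrays turned Unc13a (-0.0050), the second Rab3a probe set (-0.033) and Rpe (0.016). Without the arrays of lowest actin difference, B3gnt3 (-0.082) and the second probe sets of Fcho1 (-0.023) and Rab3a (-0.0052) turned.

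For heterozygous minus wild type, leaving out 1 array gave -0.0054 to 0.16 for B3gnt3, -0.10 to 0.016 for Fcho1, -0.069 to 0.091 for Map1s, -0.048 to 0.13 for Pgls and -0.34 to 0.16 for Slc27a1. The 6 arrays turned Fcho1 (0.016), Map1s (0.024), Pgls (-0.048) and Slc27a1 (0.16). The actin covariate turned Fcho1 (0.063) and Map1s (0.14), array weights Map1s (0.058), and leaving out the arrays of lowest actin difference B3gnt3 (-0.0054) and Map1s (0.091). For homozygous minus heterozygous, leaving out 1 array gave -0.097 to 0.067 for B3gnt3, -0.042 to 0.10 for Jak3, -0.017 to 0.19 for Map1s, -1.65 to 0.25 for Nxnl1, -0.072 to 0.24 for Pgls and -0.18 to 0.31 for Slc27a1. B3gnt3 turned with equal array medians (0.029) and the actin covariate (0.020). Array weights turned Jak3 (-0.077), Pgls (-0.077) and Slc27a1 (-0.0022), the actin covariate Map1s (-0.056) and Pgls (-0.032), and the 6 arrays Slc27a1 (-0.20). Leaving out the arrays of lowest actin difference turned Jak3 (-0.015), Map1s (-0.017) and Pgls (-0.072). The cause of these turns was not tested.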
